A study of Mus musculus with 12 samples.

Results

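Palatal shelves of wild-type mouse embryos treated with 5-aza-2'-deoxycytidine (AzadC) were compared with shelves of untreated wild-type embryos, gene by gene, and each difference was then set beside the same genes in vehicle-treated shelves. The comparison rested on 6 of the 12 RNA sequencing libraries of the study, 3 labelled AzadC and 3 labelled control, chosen by label and not by any measured value. The 3 vehicle libraries also came from wild-type embryos, and the remaining 3, from untreated embryos with a conditional knockout of the DNA methyltransferase gene Dnmt1, entered the fit and are quoted for single loci. All shelves were dissected on gestational day 12. Each library pooled 2 embryos, so that a group stood for 6 embryos from at least 3 litters, and the labels do not tie a library to its litter. Neither the mouse strain nor the dose, route or day of treatment could be taken from the labels.

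AzadC is a cytosine analogue that is built into DNA during replication, where it traps DNA methyltransferases and so lowers methylation in the daughter strands. Genes held silent by promoter methylation, among them germline genes, and repeated elements are the classic targets of its action, and RNA from such elements can set off an interferon response. The palatal shelves are outgrowths of the maxillary processes, made of neural crest mesenchyme under an epithelium and entered by vessels, nerves, blood cells and macrophages, and they later fuse into the roof of the mouth.

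Levels are in CPM, the usual counts-per-library unit that scales the deposited expected counts to a common library size, and differences are log2 fold changes with their standard error (SE) from edgeR's quasi-likelihood test, called at an adjusted p below 0.05 over 17335 genes. Depth lay between 12640536 and 33113790 counts a library, with AzadC replicate 1 the shallowest and control replicate 1 the deepest, and intervals and SEs cover these libraries only. Summed levels of 59 palatal and facial mesenchyme regulators were 4812 to 4962 CPM in AzadC libraries, 4357 to 5196 CPM in vehicle libraries and 4931 to 5624 CPM in control libraries, so the labelled tissue was present in all of them. Xist, the RNA of the inactive X chromosome, was at 0.867 CPM in AzadC replicate 1 and at 888 and 839 CPM in AzadC replicates 2 and 3, against 738 to 1306 CPM in vehicle and 1021 to 1410 CPM in control libraries. Because the samples are bulk tissue, fewer cells of a type and less RNA per cell cannot be told apart in any result that follows.

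AzadC shelves differed from control shelves at 317 of 17335 genes (1.83%), of which 153 rose (0.883%) and 164 fell (0.946%). A change of more than 2-fold was reached by 51 of the genes that rose and 90 of those that fell. Among genes above 1 CPM on average, with no overlap between AzadC and control libraries and leaving out pseudogenes and Gm names, those that rose were led by the macrophage receptor Siglec1, the interferon-induced antiviral genes Oas2, Ifi204 and Ifit3, the lysozyme gene Lyz2, and red cell genes such as Hemgn, Pklr, Rhag and Hbb-bh1. Within the same limits, the genes that fell were led by Cfap91, a gene of cilia and sperm tails, by the bone matrix gene Ibsp, and by the cartilage genes Acan, Mia, Cnmd and Col9a3. Of the 317 genes, 294 were protein coding and 19 were annotated pseudogenes.

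Vehicle shelves differed from the same control libraries at 610 genes (3.52%), 253 of them higher (1.46%) and 357 lower (2.06%). Among the 317 AzadC calls, 185 were also called in vehicle against control, all in the same direction, 77 higher and 108 lower. That is 58.4% of the AzadC calls and 30.3% of the vehicle calls, and both comparisons use the same 3 control libraries. The 77 shared higher genes had median log2 changes of 0.51 in AzadC and 0.53 in vehicle, and the 108 shared lower genes had medians of -1.19 in AzadC and -1.27 in vehicle.

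The other 132 AzadC calls were not called in vehicle against control. The 76 higher ones had a median log2 change of 0.62 against control in AzadC and of 0.18 in vehicle. The 56 lower ones had median log2 changes of -0.88 in AzadC and -0.47 in vehicle. These genes were picked by being called in one comparison and not in the other, which by itself sets the 2 groups apart, so the medians are a description. After adjustment, the direct comparison of AzadC with vehicle called 2 genes by edgeR (0.0115%), Cav1 and Meioc, and 1105 genes had an unadjusted p below 0.05 (3.89% of all genes higher and 2.49% lower). Neither Cav1 nor Meioc was called in AzadC against control, so none of the 317 genes also parted from vehicle past the threshold.

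**Figure D1:**
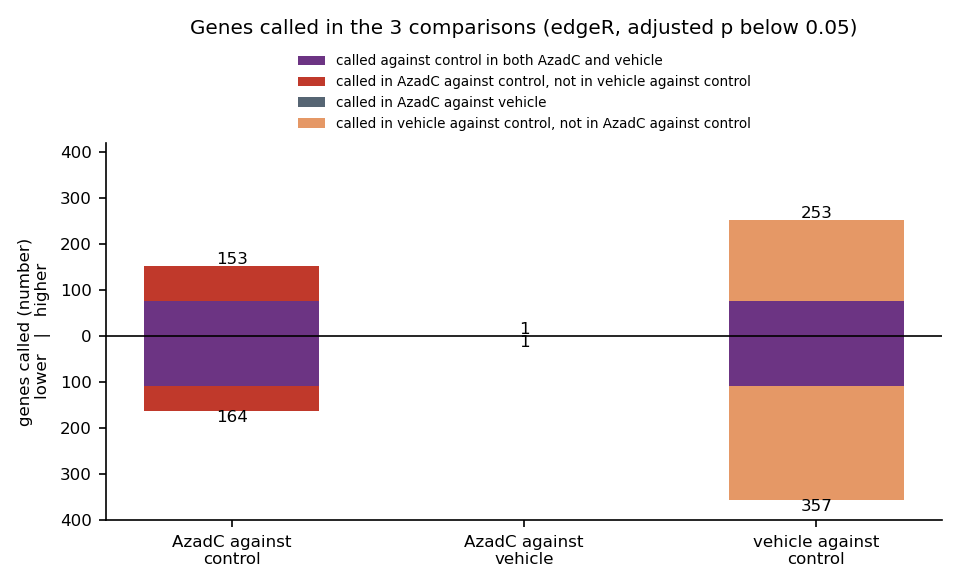
Number of genes called higher (above the axis) and lower (below it) in AzadC against control, AzadC against vehicle and vehicle against control, with genes called against control in both AzadC and vehicle in purple. The 77 higher and 108 lower shared genes make up much of the 153 and 164 AzadC calls, and the middle bar holds 1 gene in each direction.

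The number of calls depended on single libraries. It was 92 without AzadC replicate 1, 37 without AzadC replicate 2, 134 without control replicate 2, 209 without control replicate 3 and 188 without vehicle replicate 3, which belongs to neither group but shares in the estimate of spread. The shared calls numbered 64 without AzadC replicate 1, 30 without AzadC replicate 2, 92 without control replicate 2, 86 without vehicle replicate 1 and 58 without vehicle replicate 3. Vehicle against control gave 282 calls without control replicate 2, 338 without control replicate 3, 136 without vehicle replicate 1 and 137 without vehicle replicate 3.

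Interferon-stimulated genes were higher in AzadC shelves than in either other group. Of 47 tested members of an interferon response list, 11 rose in AzadC against control and none fell, where 0.883% of all genes rose and 0.946% fell. The median log2 change was 1.11, against -0.01 over all genes tested. In vehicle against control the median was 0.02, with 1 member higher (Ifit3b) and 1 lower (Ifitm2). There 1.46% of all genes were higher and 2.06% lower. In the direct comparison of AzadC with vehicle the median was 1.15. Of the 47 members 32 had an unadjusted p below 0.05 on the higher side and 0 on the lower side. The higher side held 3.89% of all genes, and no member passed after adjustment. Summed levels were 678 to 764 CPM in AzadC libraries, 422 to 553 CPM in vehicle libraries and 484 to 573 CPM in control libraries. All 3 AzadC libraries lay above all 3 control libraries for 34 members, where 10.7% of all genes did so, and above all 3 vehicle libraries for 30 members, where 6.1% of all genes did so.

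Ddx58, which encodes the RNA sensor RIG-I, had 32.4, 23.6 and 29.5 CPM in AzadC libraries, 22.4, 14.2 and 15.2 CPM in vehicle libraries and 17.8, 14.4 and 14 CPM in control libraries, with a log2 change of 0.88 against control (SE 0.187, adjusted p = 0.032, edgeR). Every AzadC library lay above every other, and vehicle replicate 1 and control replicate 1 were the highest of their groups. Parp9 and Dtx3l, partners in ubiquitin and ADP-ribose signalling, rose by 0.89 and 1.03 (adjusted p = 0.0369 and 0.0332).

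Among the effector genes, Ifitm3, which blocks virus entry at the endosome, had 36.8, 30.5 and 37.4 CPM in AzadC libraries, 22.8, 19.6 and 17.1 CPM in vehicle libraries and 21.8, 13.8 and 18.4 CPM in control libraries. Its log2 change against control was 0.96 (SE 0.16, adjusted p = 0.0115, edgeR), with no overlap between AzadC and either other group. Lgals3bp, a secreted glycoprotein, had 11.7, 7.33 and 9.15 CPM in AzadC libraries, 4.27, 2.76 and 2.06 CPM in vehicle libraries and 4.38, 2.11 and 2.11 CPM in control libraries. Its log2 change was 1.68 against control (SE 0.31, adjusted p = 0.0212) and 1.65 against vehicle (unadjusted p = 0.000162).

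Oas2, a sensor of double-stranded RNA, had 3.7, 2.97 and 2.6 CPM in AzadC libraries, 1.55, 0.257 and 0.807 CPM in vehicle libraries and 0.596, 0.192 and 0.399 CPM in control libraries, a log2 change of 2.91 against control (SE 0.56, adjusted p = 0.023, edgeR). The guanylate-binding protein gene Gbp2 had 0.552, 1.88 and 1.14 CPM in AzadC libraries, 0.0619, 0.129 and 0.0807 CPM in vehicle libraries and 0.119, 0.153 and 0.342 CPM in control libraries, so the AzadC libraries lay apart although the counts were few. Further called members were Ifi204, a DNA sensor, at a log2 change of 2.31, and the tetratricopeptide genes Ifit3 at 2.23 and Ifit3b at 3.86, which are near copies of each other and whose counts are uncertain one by one.

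Some well-known members did not pass. Isg15, the ubiquitin-like modifier, had 5.28, 5.15 and 4.21 CPM in AzadC libraries, 5.01, 0.257 and 0.686 CPM in vehicle libraries and 2.33, 0.268 and 0.628 CPM in control libraries (log2 change 2.12, adjusted p = 0.208, edgeR). Usp18, the enzyme that removes Isg15 from proteins, had 5.12, 6.3 and 5.41 CPM in AzadC libraries, 3.03, 0.161 and 0.686 CPM in vehicle libraries and 2.03, 0.0383 and 0.171 CPM in control libraries (log2 change 2.79, adjusted p = 0.141). For both genes vehicle replicate 1 and control replicate 1 stood above the other 2 libraries of their groups.

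Without vehicle replicate 1, the direct comparison of AzadC with vehicle called 17 genes instead of 2 (0.0947% of the genes tested in that fit), of which 16 were higher in AzadC. They included Ifi44, Oasl2, Bst2 and Ifi35 of the interferon list and Fcgr3, Mpeg1 and Tyrobp of the macrophage list. Others that were higher were Siglec1, Lgals9, Rnf213, Irgm1, Slfn5, Parp12, Ctsc and Cav1, and Meioc was the 1 lower gene; they are named here after their values were seen. Rnf213, a large interferon-induced ubiquitin ligase, had 74.2, 57.8 and 51.9 CPM in AzadC libraries, 40.8, 14.7 and 15.9 CPM in vehicle libraries and 27.7, 16.7 and 28 CPM in control libraries. In that fit its log2 difference from vehicle was 2.01 (adjusted p = 0.00385, edgeR), and 12 of the 17 genes were also called in AzadC against control. Vehicle replicate 1 had the highest summed interferon level of its group, at 553.1 CPM against 421.5 and 437.3 CPM. Leaving it out therefore widens the gap from vehicle for such genes by itself, and the 17 calls are a description. Omission of any other library gave 1 or 2 calls.

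The count of 11 interferon genes depended on single libraries. It was 2 without AzadC replicate 1, 3 without AzadC replicate 2, 6 without AzadC replicate 3, 1 without control replicate 2, 4 without control replicate 3 and 7 without vehicle replicate 3. The median log2 change against control lay between 0.89 (without control replicate 2) and 1.45 (without control replicate 1), and that against vehicle between 0.84 and 1.48.

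The promoters of several members hold the short sequence that interferon-activated factors read, and a few are shown because the levels of their genes are described here. The motif searched was GAAA and GAAA spaced by 2 bases or, on the other strand, TTTC and TTTC spaced by 2 bases, in the 250 bases before the transcription start in RefSeq (GRCm38.p6). It was present in 14 of the 35 tested list members with a promoter in the table (40.0%), including 3 of the 7 called ones (42.9%), against 936 of all 27025 promoters (3.46%). Of 115 genes called higher in AzadC with a promoter in the table, 14 held it (12.2%), against 2 of 109 called lower (1.83%). A match is a description of the sequence and not of factor binding. Capitals mark the matches in the following stretches, each written 5′ to 3′ on the strand of its gene, for Ifit3 (chr19:34583343-34583446, plus strand), Gbp2 (chr3:142620574-142620643, plus strand), Isg15 (chr4:156200845-156200926, minus strand), Oas1a (chr5:120907526-120907575, minus strand) and Bst2 (chr8:71537557-71537632, minus strand).
Ifit3: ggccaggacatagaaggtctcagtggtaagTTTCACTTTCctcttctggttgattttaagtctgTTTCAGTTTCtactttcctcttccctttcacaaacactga
Gbp2: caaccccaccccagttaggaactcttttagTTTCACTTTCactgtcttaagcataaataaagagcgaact
Isg15: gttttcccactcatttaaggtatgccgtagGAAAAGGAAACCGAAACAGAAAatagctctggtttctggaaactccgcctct
Oas1a: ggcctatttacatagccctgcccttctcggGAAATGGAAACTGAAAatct
Bst2: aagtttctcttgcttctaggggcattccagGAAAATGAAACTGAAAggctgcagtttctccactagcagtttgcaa

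Ifit3 has 2 matches, at 156 and 122 bases before its start, and the stretch around the matches of Ifit3b carries the same letters. Isg15 has 3 overlapping matches, and Oas1a and Bst2 have 2 overlapping matches each. Oas1a, of the same sensor family as Oas2, had 4.49, 4.85 and 4.84 CPM in AzadC libraries, 1.86, 0.386 and 0.444 CPM in vehicle libraries and 2.06, 0.345 and 0.571 CPM in control libraries, without passing against control (adjusted p = 0.0749, edgeR). Bst2, which encodes the virus-tethering protein tetherin, had 12.5, 11 and 13.8 CPM in AzadC libraries, 6.13, 2.51 and 2.38 CPM in vehicle libraries and 7.99, 2.8 and 3.71 CPM in control libraries.

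Macrophage genes were higher in the AzadC shelves than in vehicle and control shelves, and higher still in knockout shelves. Of 29 tested members of a macrophage and leukocyte list, 9 rose against control, where 0.883% of all genes did, and none fell. Their median log2 change was 0.68. In vehicle against control the median was 0.11, and 2 members rose (Lyz2 and Csf1r), where 1.46% of all genes did. The direct median against vehicle was 0.59, with 18 members at an unadjusted p below 0.05 on the higher side. Of all genes 3.89% were on that side, and no member passed after adjustment. Summed levels were 323 to 346 CPM in AzadC libraries, 221 to 278 CPM in vehicle libraries and 189 to 253 CPM in control libraries, with no member at 0 throughout a group. Knockout libraries, at 675 to 744 CPM, were above all of these. Their summed interferon levels, at 554 to 565 CPM, lay within the range of the control libraries. Abundant members carry that sum, and single members differed. Lgals3bp and Ifi204 averaged 9.05 and 3.97 CPM in knockout, 9.38 and 4.11 CPM in AzadC, and 2.87 and 0.818 CPM in control libraries. Ifitm3 averaged 19.4 CPM in knockout, 34.9 CPM in AzadC and 18 CPM in control libraries. Both lists were higher in AzadC than in vehicle and control libraries, and the part of one in the other was not tested.

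Lyz2, the lysozyme of macrophages, had 21.1, 23 and 17.6 CPM in AzadC libraries, 6.43, 13.5 and 11.2 CPM in vehicle libraries and 5.93, 5.25 and 4.22 CPM in control libraries. It rose by 1.98 against control (SE 0.23, adjusted p = 0.000974, edgeR), and in vehicle by 1.02 (adjusted p = 0.0278). Fcgr3, a receptor for antibody-coated particles, had 10.1, 9.63 and 8.98 CPM in AzadC libraries, 4.64, 3.44 and 4.03 CPM in vehicle libraries and 3.04, 2.72 and 3.48 CPM in control libraries (log2 change 1.64, SE 0.19, adjusted p = 0.00101). Its direct difference from vehicle was 1.25 with an adjusted p of 0.0666, just short of the threshold.

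Csf1r, the receptor on which macrophages depend for survival, had 33.4, 35.6 and 41.5 CPM in AzadC libraries, 31.7, 22.7 and 24.8 CPM in vehicle libraries and 20.7, 16.1 and 17.3 CPM in control libraries (log2 change 1.03, adjusted p = 0.00312), while the knockout libraries had 101, 89 and 86.5 CPM. Mpeg1, a pore-forming protein, Ctss, a lysosomal protease, Adgre1, which encodes the F4/80 surface marker, Tyrobp, an adaptor of activating receptors, Fcgr1 and the chemokine receptor gene Cx3cr1 rose by 0.66 to 1.34. Complement genes C1qa, C1qb and C1qc, the scavenger receptor gene Mrc1 and the pan-leukocyte gene Ptprc did not pass, with log2 changes of 0.52 to 0.92. The count of 9 became 5 without AzadC replicate 1, 3 without AzadC replicate 2, 5 without control replicate 2 and 5 without control replicate 3.

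Siglec1, a sialic acid receptor of macrophages that also responds to interferon, had the highest log2 change under the naming rule. It had 4.96, 3.03 and 3.47 CPM in AzadC libraries, 0.866, 0.418 and 0.121 CPM in vehicle libraries and 0.745, 0.498 and 0.114 CPM in control libraries, a change of 2.96 (SE 0.54, adjusted p = 0.0192, edgeR). Selenop, a selenium carrier protein, was among the 10 smallest p-values, with 115, 115 and 103 CPM in AzadC libraries, 93, 77.6 and 86.3 CPM in vehicle libraries and 74, 66.5 and 69.4 CPM in control libraries (log2 change 0.67, adjusted p = 0.000898).

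**Figure D2:**
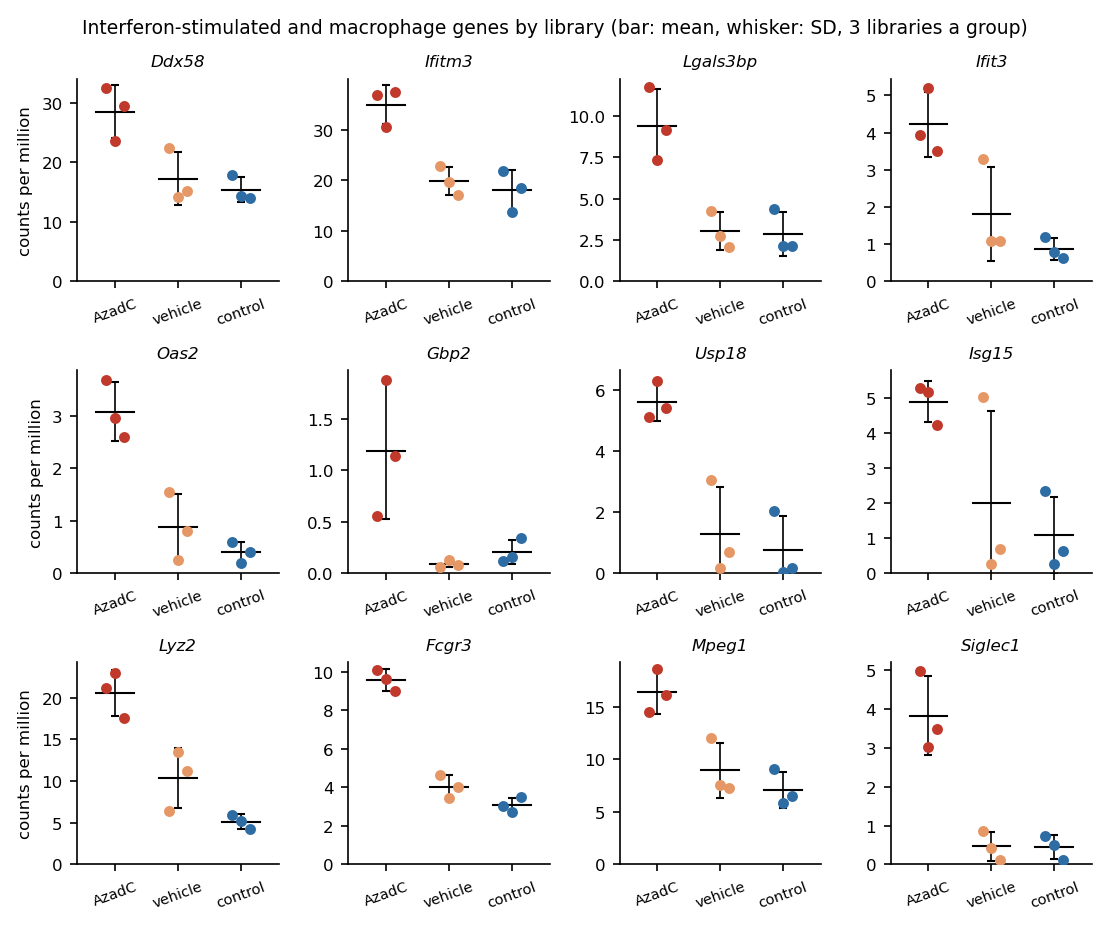
Level of 12 interferon-stimulated and macrophage genes in CPM (vertical axis, linear from 0), with 1 point for each of the 3 AzadC, vehicle and control libraries, a bar at the mean and a whisker of 1 SD. Ddx58 lies at 23.6 to 32.4 CPM in AzadC libraries, above 14.2 to 22.4 CPM in vehicle and 14 to 17.8 CPM in control libraries, and Isg15 shows the single high vehicle library at 5.01 CPM.

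Dnmt1, the maintenance methyltransferase that AzadC traps, was itself higher in AzadC shelves, and as high in vehicle shelves. It had 408, 482 and 411 CPM in AzadC libraries, 452, 451 and 448 CPM in vehicle libraries and 286, 278 and 258 CPM in control libraries. The change was 0.66 in AzadC (SE 0.07, adjusted p = 0.000719, edgeR) and 0.72 in vehicle (SE 0.07, adjusted p = 0.000286), and the direct difference between AzadC and vehicle was -0.05 (SE 0.07). No AzadC or vehicle library overlapped a control library, and the gene was called under all 19 alternatives tried.

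The other 17 tested genes of the DNA methylation machinery did not pass. The de novo methyltransferase gene Dnmt3a averaged 538 CPM in AzadC libraries, 521 CPM in vehicle libraries and 502 CPM in control libraries, and its partner Dnmt3b had log2 changes of 0.29 in AzadC and 0.34 in vehicle. Uhrf1, which guides Dnmt1 to newly made DNA, and the demethylase gene Tet1 had log2 changes of 0.14 and 0.04 in AzadC.

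Germline genes kept silent by methylation were not called in AzadC shelves. None of 47 tested members passed in either direction, and their median log2 change was 0.00. Genes were filtered on low counts over all 12 libraries, so members silent in the other groups could enter the test through the knockout libraries. For members near 0 in both AzadC and control libraries the lack of a call was largely built in, and the median is a description. Summed over the list, the levels were 108 to 126 CPM in AzadC libraries, 119 to 128 CPM in vehicle libraries, 624 to 889 CPM in knockout libraries and 103 to 131 CPM in control libraries. The germ cell RNA-binding gene Dazl had 0, 0.363 and 0.1 CPM in AzadC libraries, 0, 0 and 0.0807 CPM in vehicle libraries and 67.5, 120 and 80.3 CPM in knockout libraries, and was at 0 in all 3 control libraries. Ddx4, the germ cell helicase, had a log2 change of -1.25 against control without passing (adjusted p = 0.0585). Meioc, a meiotic factor, was near its control level in AzadC shelves, with 1.26, 1.33 and 1.8 CPM in AzadC libraries, 18.7, 27.8 and 25.2 CPM in vehicle libraries and 0.865, 1.19 and 0.799 CPM in control libraries.

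Imprinted genes, expressed from 1 parental copy, numbered 47 among those tested, with a median log2 change of -0.06 and 2 calls, where 1.83% of all genes were called. Magel2, a gene of the Prader-Willi region expressed from the paternal copy, had 64.9, 113 and 81.3 CPM in AzadC libraries, 79.8, 79.3 and 93.1 CPM in vehicle libraries and 32.3, 39.5 and 22.8 CPM in control libraries, a rise of 1.45 in AzadC and 1.41 in vehicle (adjusted p = 0.019 and 0.0141, edgeR). Plagl1, an imprinted zinc finger gene that restrains growth, fell by 0.76 in AzadC and by 1.04 in vehicle. Of 39 tested p53 targets only Psrc1, a microtubule regulator, rose (0.46, adjusted p = 0.0212, edgeR), where 0.883% of all genes rose. The list's median was 0.03.

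Genes of cell division were higher than in control shelves in AzadC and in vehicle shelves alike, and in untreated knockout shelves as well. Of 51 tested G2/M genes 8 rose in AzadC against control, where 0.883% of all genes did, with a median log2 change of 0.25. In vehicle 18 rose, where 1.46% of all genes did, with a median of 0.30. The direct median between AzadC and vehicle was -0.02. Kif2c, a motor that takes microtubule ends apart, had 141, 157 and 121 CPM in AzadC libraries, 148, 128 and 142 CPM in vehicle libraries and 98.8, 93 and 99.2 CPM in control libraries (log2 change 0.53, SE 0.09, adjusted p = 0.0162). Mki67, the proliferation marker, had 786, 816 and 679 CPM in AzadC libraries, 815, 718 and 727 CPM in vehicle libraries and 506, 576 and 590 CPM in control libraries (0.45, adjusted p = 0.0273). Neither gene's AzadC libraries overlapped its control libraries, while AzadC and vehicle libraries overlapped. Summed G2/M levels were 7564 to 8895 CPM in AzadC, 7829 to 9055 CPM in vehicle and 6542 to 7043 CPM in control libraries. The untreated knockout libraries had 7869, 9016 and 8299 CPM, also above every control library.

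The other G2/M calls were the checkpoint kinase gene Bub1b, the cyclin gene Ccnb2, the condensin gene Ncapd2, the kinesins Cenpe and Kif4, and the spindle factor Tpx2, at log2 changes of 0.37 to 0.47. Of 51 S-phase genes, the replicative helicase subunit Mcm3 (0.31) and the DNA ligase Lig1 (0.38) rose in AzadC, with a list median of 0.20. In vehicle 6 rose, and the shares over all genes were 0.883% in AzadC and 1.46% in vehicle. Summed S-phase levels were 5005 to 5916 CPM in AzadC, 5266 to 5759 CPM in vehicle and 4534 to 4832 CPM in control libraries. Knockout libraries had 5309, 5477 and 5318 CPM. The G2/M count was 1 without AzadC replicate 1, 0 without AzadC replicate 2, 17 without AzadC replicate 3, 5 without control replicate 1 and 2 without control replicate 2.

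Cytosolic ribosomal protein genes rose by small amounts in AzadC shelves. Of 62 tested, 15 passed against control, all higher, where 0.883% of all genes were higher, with a median log2 change of 0.24. In vehicle 1 of 62 passed on the higher side, where 1.46% of all genes did, with a median of 0.08. The direct median against vehicle was 0.13, with 27 at an unadjusted p below 0.05 on the higher side. That side held 3.89% of all genes, and no member passed after adjustment. Rpl23 had 1095, 1098 and 931 CPM in AzadC libraries, 838, 872 and 855 CPM in vehicle libraries and 796, 824 and 756 CPM in control libraries (log2 change 0.39, SE 0.07, adjusted p = 0.0157, edgeR). Summed over the list, the levels were 47320 to 50780 CPM in AzadC libraries, 42380 to 47080 CPM in vehicle libraries and 39740 to 43300 CPM in control libraries. Rpl32 rose by 0.37, and the calls of Rplp0 and Rpl34, both within the 15, are uncertain because near copies of these genes share their reads. The count was 3 without AzadC replicate 1, 1 without AzadC replicate 2, 6 without control replicate 2, 7 without control replicate 3 and 8 without vehicle replicate 3.

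Red cell genes were higher in both AzadC and vehicle shelves. Of 27 tested erythroid genes 7 rose in AzadC, among them Hbb-bh1, Sptb, Rhd, Rhag and Hba-x, and 8 rose in vehicle, with medians of 0.60 and 0.69. The shares of all genes that rose were 0.883% in AzadC and 1.46% in vehicle. Hbb-bh1, an embryonic beta-like globin of primitive red cells, had 264, 386 and 298 CPM in AzadC libraries, 437, 358 and 294 CPM in vehicle libraries and 88.7, 128 and 60.1 CPM in control libraries (log2 change 1.77, SE 0.28, adjusted p = 0.0101, edgeR). Hba-x, the embryonic alpha-like globin, had 507, 743 and 722 CPM in AzadC libraries, 726, 794 and 632 CPM in vehicle libraries and 219, 429 and 178 CPM in control libraries (1.26, adjusted p = 0.0478). Control libraries lay below all AzadC and vehicle libraries for both globins. Knockout libraries, at 150, 77.9 and 85 CPM for Hbb-bh1, overlapped the control libraries. Summed over the list, which the abundant globins dominate, the levels were 3556 to 4573 CPM in AzadC libraries, 4196 to 5775 CPM in vehicle libraries and 2270 to 5850 CPM in control libraries, with control replicate 2 the highest of the 9.

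Adult globins did not follow. Hbb-bs had 73.5, 117 and 79.1 CPM in AzadC libraries, 55.2, 123 and 65.1 CPM in vehicle libraries and 107, 276 and 114 CPM in control libraries (log2 change -0.88, adjusted p = 0.227), and Hba-a2 had a log2 change of -0.77 (adjusted p = 0.333). The membrane genes Sptb, for a spectrin chain, and Rhag and Rhd, of the Rhesus complex, rose by 1.28 to 1.95. Outside the list, Hemgn, a nuclear protein of blood precursors, had 6.15, 11.8 and 7.31 CPM in AzadC libraries, 11.6, 7.13 and 7.18 CPM in vehicle libraries and 1.04, 1.3 and 0.97 CPM in control libraries. Pklr, the red cell and liver pyruvate kinase, rose by 2.39. Of the 7 list calls 2 were left without AzadC replicate 1, 0 without AzadC replicate 2, 4 without AzadC replicate 3, 2 without control replicate 1, 2 without control replicate 3 and 4 without vehicle replicate 3.

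Cartilage genes were lower in AzadC shelves, and the control libraries themselves differed widely in them. Of 23 tested chondrogenic genes 5 fell in AzadC (Acan, Col9a3, Cnmd, Col11a2 and Hapln1) and 4 in vehicle, with median log2 changes of -1.31 and -0.94. Across all genes, 0.946% fell in AzadC and 2.06% in vehicle. Acan, the large cartilage proteoglycan aggrecan, had 1.18, 0.121 and 2.57 CPM in AzadC libraries, 4.83, 4.4 and 3.71 CPM in vehicle libraries and 21.2, 59.4 and 3.65 CPM in control libraries (log2 change -4.31, SE 0.85, adjusted p = 0.0248, edgeR). Col9a3, a chain of collagen IX, had 11.1, 5.88 and 16.7 CPM in AzadC libraries, 26, 27.3 and 20.5 CPM in vehicle libraries and 84.9, 129 and 18.3 CPM in control libraries (-2.76, SE 0.53, adjusted p = 0.0226). Control replicate 3 came close to the AzadC libraries for both genes and control replicate 2 was the highest of all.

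Col2a1, the main cartilage collagen, and Sox9, the factor that starts cartilage formation, did not pass, with log2 changes of -0.56 and -0.32. The summed list was 1540 to 2104 CPM in AzadC libraries, 2054 to 2233 CPM in vehicle libraries and 1542 to 4451 CPM in control libraries. The count of 5 was 0 without AzadC replicate 1, AzadC replicate 2 or control replicate 2, and 11 without control replicate 3. Each library's mean level of the list was then used as a covariate, chosen after seeing the data. With it, 29 genes were called in AzadC against control, 23 of them among the 317. No interferon, macrophage, ribosomal, G2/M, osteogenic or chondrogenic list member was called. The covariate is made from the chondrogenic list itself, so the loss of that list's calls was largely built in. Its centred log2 value also differed between groups, at 0.897, 1.64 and 0.0595 in control and -0.146, -0.591 and 0.0569 in AzadC libraries. What cartilage content contributes to the other lists was therefore not tested.

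Bone and fibrous matrix genes were also lower, with control libraries highest. Of 27 tested osteogenic genes 6 fell in AzadC (Ibsp, Bmp3, Lum, Alpl, Ogn and Col5a2) and 12 in vehicle, with medians of -0.70 and -0.73. The shares of all genes that fell were 0.946% in AzadC and 2.06% in vehicle. Ibsp, the bone sialoprotein of mineralising matrix, had 0.158, 0 and 0.134 CPM in AzadC libraries, 0.186, 0 and 0.0807 CPM in vehicle libraries and 5.22, 14.9 and 2.91 CPM in control libraries (log2 change -6.19, SE 0.94, adjusted p = 0.00747, edgeR). Alpl, the alkaline phosphatase that frees phosphate for mineral, had 10.6, 5.57 and 10.1 CPM in AzadC libraries, 4.15, 5.98 and 5.08 CPM in vehicle libraries and 14.6, 37 and 28.5 CPM in control libraries (-1.61, adjusted p = 0.0212). The small proteoglycan Lum fell by 1.33 and the bone morphogenetic protein Bmp3 by 1.49.

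Runx2, the master factor of osteoblasts, lay between vehicle and control in AzadC shelves, with 73.5, 72.9 and 84 CPM in AzadC libraries, 45.8, 55.2 and 59.8 CPM in vehicle libraries and 84.1, 114 and 102 CPM in control libraries. It was called in vehicle (-0.90, adjusted p = 0.00577) and not in AzadC (-0.38, adjusted p = 0.16), and its direct difference was 0.52 without passing (adjusted p = 0.421, edgeR). The osteogenic count was 3 without AzadC replicate 1, 1 without AzadC replicate 2 and 3 without control replicate 2. Beyond the lists, the matrix gene Aspn and the phosphatase gene Enpp1, which makes pyrophosphate, fell by 3.04 and 2.76.

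Further genes with the lowest changes had lower means in AzadC and vehicle libraries than in control libraries, with few counts in both, while the order of AzadC and vehicle varied. Cfap91 had 0.158, 0.182 and 0 CPM in AzadC libraries, 0.186, 0.0964 and 0 CPM in vehicle libraries and 8.97, 10.8 and 3.71 CPM in control libraries (log2 change -6.39, SE 1.36, adjusted p = 0.0325, edgeR), while the 3 knockout libraries spread from 0.0593 to 12.2 CPM. Cyp1b1, a cytochrome P450 of retinoid and steroid metabolism, had 1.65, 0.363 and 1.77 CPM in AzadC libraries, 2.04, 3.08 and 0.847 CPM in vehicle libraries and 7.69, 5.02 and 13.9 CPM in control libraries (-2.77, adjusted p = 0.0234). Fstl5, a follistatin-like secreted factor, Lrp1b, of the LDL receptor family, Extl1, a glycosyltransferase of heparan sulfate synthesis, Chodl, a membrane lectin, and Papln, a matrix glycoprotein, fell by 2.41 to 3.08. On the higher side, Lgi1, a secreted protein known from synapses, had 25.5, 46 and 17.6 CPM in AzadC libraries, 29.6, 21.9 and 23.7 CPM in vehicle libraries and 6.32, 5.36 and 7.47 CPM in control libraries (2.22, SE 0.28, adjusted p = 0.00272). Fibcd1, a receptor for acetylated sugars, rose by 1.83, and both were also called in vehicle. Knockout libraries had 22.7, 18.9 and 17.6 CPM of Lgi1, also above the control libraries.

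**Figure D3:**
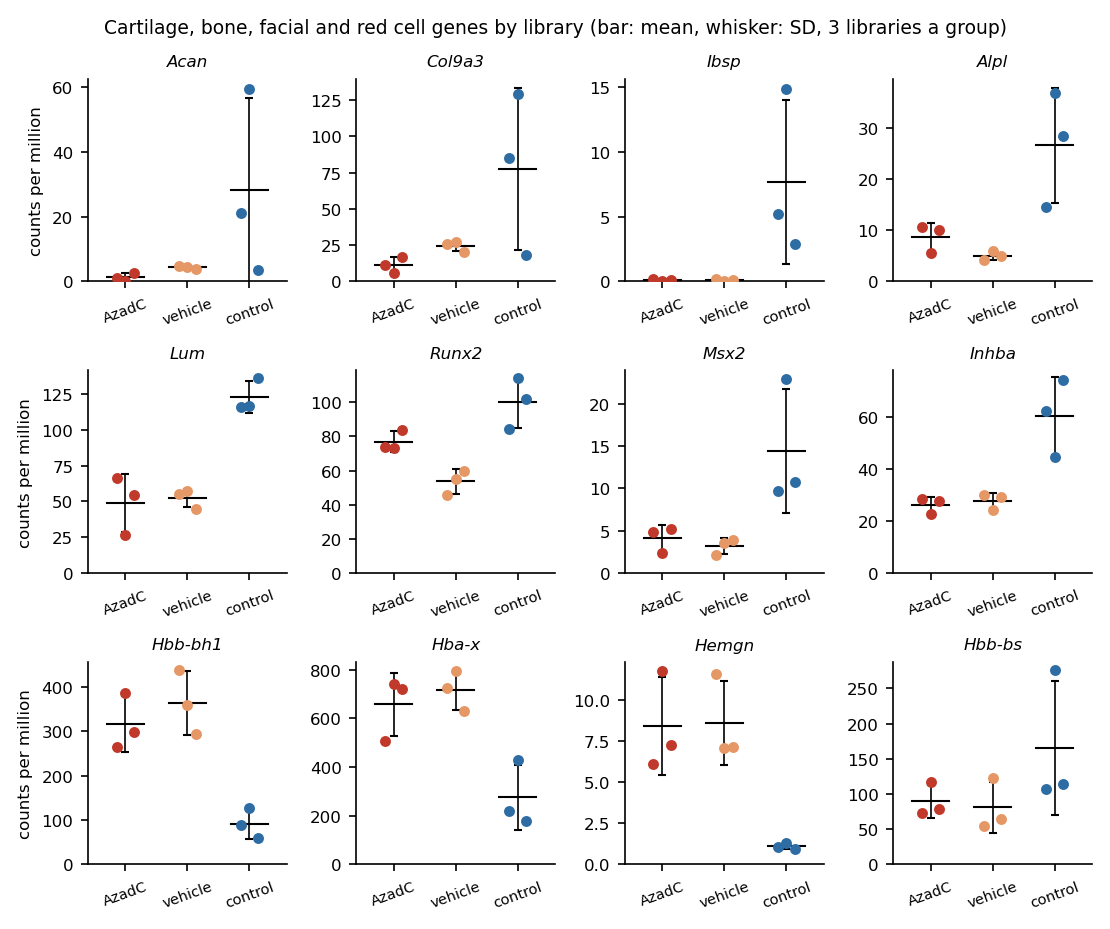
Level of 12 cartilage, bone, facial and red cell genes in CPM (vertical axis, linear from 0), with 1 point for each of the 3 AzadC, vehicle and control libraries, a bar at the mean and a whisker of 1 SD. Ibsp is at 0 to 0.158 CPM in AzadC libraries against 2.91 to 14.9 CPM in control libraries, and Hbb-bh1 lies at 264 to 386 CPM in AzadC libraries against 60.1 to 128 CPM in control libraries.

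Regulators of the palate gave 1 call higher and 2 lower, where 0.883% of all tested genes were called higher and 0.946% lower. Of 59 tested palatal and facial mesenchyme regulators, Zeb2, a factor of neural crest migration, rose by 0.48 (adjusted p = 0.0112, edgeR), and Inhba and Msx2 fell; the list's median was -0.11. Inhba, which encodes the activin A subunit and is required for a closed palate in mice, had 28.4, 22.7 and 27.7 CPM in AzadC libraries, 30, 24.4 and 29.2 CPM in vehicle libraries and 62.4, 44.6 and 74.2 CPM in control libraries (-1.20, SE 0.25, adjusted p = 0.0297). Msx2, a homeobox gene of facial bone, had 4.81, 2.36 and 5.24 CPM in AzadC libraries, 2.17, 3.6 and 3.95 CPM in vehicle libraries and 9.66, 22.9 and 10.8 CPM in control libraries (-1.80, adjusted p = 0.0342). AzadC and vehicle libraries overlapped for both genes and all lay below the control libraries.

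Signalling targets gave 1 to 3 calls a list, where 0.946% of all tested genes were called lower and 0.883% higher. Of 29 Wnt/beta-catenin targets, Tnfrsf19, Dkk3 and Wnt11 fell by 1.08, 0.92 and 1.28, and of 21 Hedgehog targets the co-receptor gene Cdon and the secreted factor Scube1 fell by 0.82 and 1.13. Scube1 had 16.5, 13.6 and 19.2 CPM in AzadC libraries, 38.7, 36.5 and 18.4 CPM in vehicle libraries and 36.4, 36.8 and 35.8 CPM in control libraries. Vehicle replicate 3 fell among the AzadC libraries, and the direct difference was -0.91 (unadjusted p = 0.0013, edgeR). Msx2 was the 1 call among 31 BMP and TGF-beta targets, the ETS factor Etv5 fell by 0.50 among 20 FGF-ERK targets, and the phosphatase gene Dusp1 rose by 0.51 among 22 immediate early genes. The list medians were -0.19 for Wnt, -0.11 for Hedgehog, -0.18 for BMP and TGF-beta, -0.04 for FGF-ERK and -0.23 for immediate early genes.

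Stress and metabolic lists gave 1 call or none each, on the lower side, where 0.946% of all tested genes were called. Slc7a11, the cystine importer, was the 1 call among 34 integrated stress response genes, with 1.42, 1.45 and 1.64 CPM in AzadC libraries, 2.1, 1.19 and 1.29 CPM in vehicle libraries and 6.71, 11.1 and 7.47 CPM in control libraries, a fall of 2.47 (SE 0.29, adjusted p = 0.00136). P4ha2, a collagen prolyl hydroxylase subunit, fell by 0.41 among 38 hypoxia and glycolysis genes. None of 13 mitochondrially encoded genes passed, and the medians of the 3 lists were -0.02, 0.05 and -0.03.

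Markers of other cell types were compared across the same libraries, where 0.883% of all genes rose in AzadC against control and 0.946% fell. Of 32 endothelial genes, Clec14a and the VEGF receptor gene Flt1 rose by 0.83 and 0.59 and the ETS factor Erg fell by 0.83, with a median of 0.15. Flt1 had 48.4, 56.7 and 41.1 CPM in AzadC libraries, 33.5, 34.3 and 31.7 CPM in vehicle libraries and 30.7, 32.6 and 33.6 CPM in control libraries, with AzadC above both other groups. No gene passed among 44 myogenic, 33 epithelial, 14 mural cell and 19 Schwann and glial genes, nor among 6 X-inactivation and Y-linked genes; the smallest adjusted p among them was 0.0575, for the basal keratin Krt14 (log2 change -2.01). Their medians were 0.64, -0.09, 0.51, -0.28 and 0.30, and the myogenic median went from -0.42 to 1.25 as single libraries were left out.

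Among 22 neuronal genes Stmn2, a growth cone protein, rose by 1.58, and Nefl and Nefm, neurofilament genes, and Map2, of dendrites, fell by 1.78, 0.93 and 0.49, so the 4 calls did not share a direction. Across all genes, 0.883% rose and 0.946% fell. Nefl had 3.55, 3.57 and 4.17 CPM in AzadC libraries, 2.91, 4.72 and 4.32 CPM in vehicle libraries and 11.4, 11.7 and 16.2 CPM in control libraries, and was called under all 19 alternatives. Kit, a receptor of melanoblasts and mast cells, was the 1 call among 4 tested melanocyte genes, with 39.9, 37.9 and 41.2 CPM in AzadC libraries, 41, 40.5 and 40.2 CPM in vehicle libraries and 28, 24.1 and 26.4 CPM in control libraries (log2 change 0.60, SE 0.08, adjusted p = 0.00242, edgeR). Its level in knockout libraries was 48.7, 45.2 and 45.8 CPM, also above control.

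**Figure D4:**
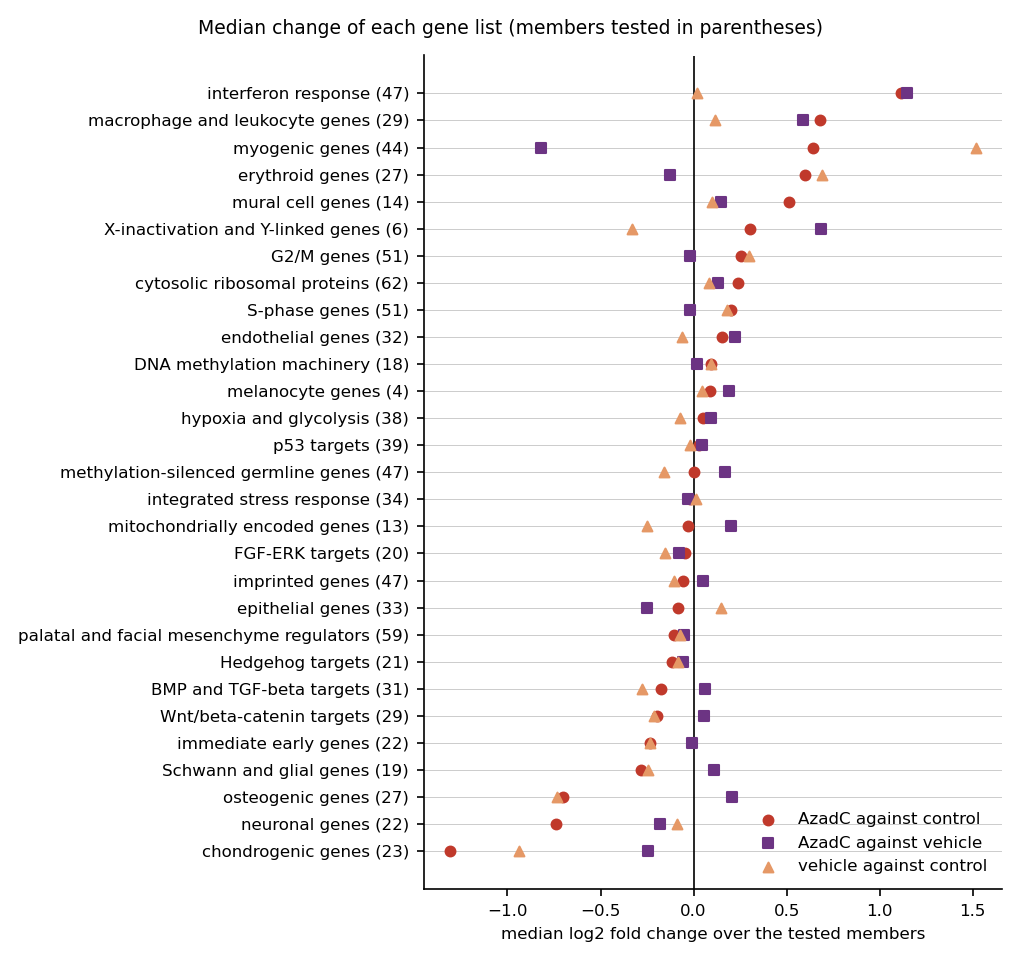
Median log2 fold change (horizontal axis) of the tested members of 29 gene lists in AzadC against control (circles), AzadC against vehicle (squares) and vehicle against control (triangles). Interferon genes have medians of 1.11, 1.15 and 0.02, macrophage genes 0.68, 0.59 and 0.11, and chondrogenic genes -1.31, -0.24 and -0.94.

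Several of the smallest p-values in the comparison belonged to genes with like levels in AzadC and vehicle shelves and another level in control shelves. Micall1, a regulator of endosome recycling on chromosome 15 (chr15:79108898-79136900, GRCm38, plus strand), had 67.6, 69.4 and 74.1 CPM in AzadC libraries, 69.8, 76.9 and 71.2 CPM in vehicle libraries, 123, 119 and 129 CPM in knockout libraries and 146, 150 and 139 CPM in control libraries. It fell by 1.04 in AzadC (SE 0.06, adjusted p = 9.7e-07, edgeR) and by 0.998 in vehicle. Its neighbours Eif3l, a translation initiation factor subunit (chr15:79075179-79094405, plus strand), and Polr2f, an RNA polymerase subunit (chr15:79141009-79151774, plus strand), fell by 0.91 and 1.22. Further along the chromosome the alpha-tubulin gene Tuba1c (chr15:99029891-99038110, plus strand) fell by 0.84.

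Eif3l had 213, 208 and 213 CPM in AzadC libraries, 216, 226 and 228 CPM in vehicle libraries, 440, 446 and 408 CPM in knockout libraries and 405, 381 and 407 CPM in control libraries. The 4 genes were named only among those without overlap between AzadC and control libraries, which 21.1% of all genes tested show. Vehicle did not overlap control for any of the 4 genes either, and both untreated groups, knockout and control, lay on the same side. Together with Dnmt1 and Nefl, these 4 were the only ones of 77 called named genes that were called under all 19 alternatives. The labels give no strain, so a difference in genetic background and the treatments cannot be told apart.

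Predicted genes and pseudogenes showed wide gaps of this kind; they were singled out after their values were seen. Of 22 called genes that were pseudogenes or carried a Gm number, 19 fell in AzadC and 3 rose. Gm15459, a processed pseudogene (chr5:5781615-5783555, GRCm38, minus strand), had 12.9, 13.8 and 9.82 CPM in AzadC libraries, 16.4, 9.51 and 19.6 CPM in vehicle libraries, 566, 599 and 566 CPM in knockout libraries and 399, 343 and 373 CPM in control libraries (log2 change -4.95, SE 0.21, adjusted p = 7.26e-08, edgeR). Gm8730 (chr8:102864845-102865798, minus strand) had 1.26, 4.12 and 1.3 CPM in AzadC libraries, 1.79, 1.9 and 1.65 CPM in vehicle libraries, 129, 254 and 82.8 CPM in knockout libraries and 256, 204 and 193 CPM in control libraries. Gm2427 was at 0 in all 6 AzadC and vehicle libraries and at 1.58, 1.65 and 1.2 CPM in control libraries. Gm2446 was at 0, 3.69 and 4.31 CPM in AzadC libraries, at 3.16, 2.22 and 4.52 CPM in vehicle libraries and at 0 in all 6 knockout and control libraries.

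Most of these loci are near copies of active genes, so the counts of copy and parent are uncertain one by one. Aligned to the transcripts of the tested protein-coding genes, 20 of the 22 matched another gene over at least 50% of their length, 19 of them at 90% identity or more. Gm15459 matched Hspa8, a heat shock protein 70 family chaperone, at 99.7% identity over 1941 bases. Gm8730, Gm9625 and Gm6278 matched the ribosomal protein gene Rplp0 at 98.7%, 97.4% and 96.4%, and Gm3226, Gm3756 and Gm14150 matched the alpha-tubulin gene Tuba1b at 98.7%, 98.7% and 98.6%. Gm9008 matched Rnf26, a ubiquitin ligase gene, at 99.1%.

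Summing a parent gene with its copies moved its difference from control, towards 0 for some parents and away from it for others. Rplp0 alone had 1589, 1657 and 1711 CPM in AzadC libraries, 1444, 1636 and 1494 CPM in vehicle libraries and 1252, 1120 and 1100 CPM in control libraries, and was called higher in AzadC (log2 change 0.51, adjusted p = 0.00608, edgeR). Summed with its 3 copies it came to 1592, 1663 and 1713 CPM in AzadC libraries, 1447, 1639 and 1497 CPM in vehicle libraries and 1582, 1400 and 1376 CPM in control libraries, a log2 ratio of the means of 0.19 in place of 0.51. The log2 ratio of summed Hspa8 was 0.13 in place of 0.38, and that of summed Tuba1b, called alone (adjusted p = 0.0306), was 0.28 in place of 0.35. That of Ppp2r3c, the parent of Gm2446, was 0.38 in place of 0.29, and that of Rnf26 was -0.12 in place of 0.09. The summed Rplp0 level in AzadC libraries still lay above every control library, whereas AzadC and control libraries overlapped for summed Hspa8.

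**Figure D5:**
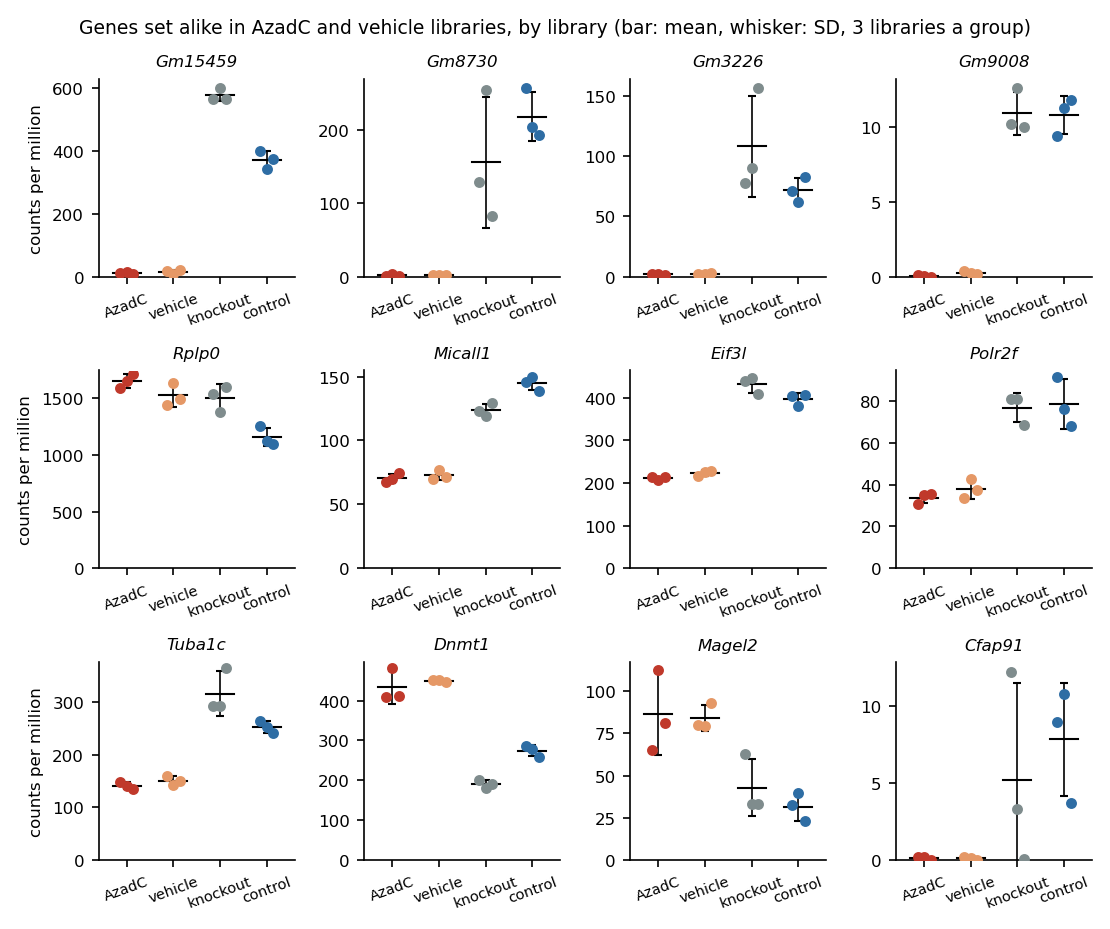
Level of 12 genes in CPM (vertical axis, linear from 0), with 1 point for each of the 3 AzadC, vehicle, knockout and control libraries, a bar at the mean and a whisker of 1 SD. Gm15459 lies at 9.82 to 13.8 CPM in AzadC and 9.51 to 19.6 CPM in vehicle libraries, against 566 to 599 CPM in knockout and 343 to 399 CPM in control libraries, while Dnmt1 is highest in AzadC and vehicle libraries.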

How the data were processed

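RNA from palatal shelves was sequenced in 12 libraries, and the authors deposited a table per library with expected counts and TPM for each gene, per the file headers. Per the submitters' processing notes, the tools included STAR 2.7.0 and RSEM 1.3.1 with the mm10 build; the notes give no role for each. TPM values, a deposited unit, were checked and not used for any result. Expected counts were rounded. Of all values in a library, zeros included, 90.6% to 93.1% were whole, while 21055 to 23862 genes a library were above 0. The share among values above 0 is therefore lower. Genes were kept with edgeR's filterByExpr by group, scaled by TMM and fitted over all 12 libraries with 1 mean per group (edgeR 4.0.16, R 4.3.3); the common coefficient of variation was 0.152. DESeq2 1.42.0 and limma 3.58.1 (voom) were alternatives, besides other scalings, filters, covariates, a block on replicate number and the omission of each library. Adjusted p-values are Benjamini-Hochberg over all genes tested. Of 56691 genes, 52073 matched GENCODE M21 by ID (91.9%), which gave coordinates.

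On simulated counts for AzadC against control over 17335 genes with 200 changed, edgeR recovered 46.3% of changes of 1.5-fold, 74.6% of 2-fold and 92.4% of 4-fold, with 1.39% of calls false. The changed genes were drawn from those above 1 CPM on average, and genes varied independently in a single run. Shifts shared by many genes of a library were not simulated, so these rates may not hold for the real calls. Libraries of a group differed by far more than sampling noise, and each counted as a replicate. That spread does not show that the pools are independent, since the labels do not tie a library to its litter.

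The comparison and the 29 gene lists were chosen with earlier results of these data known, and 8 list symbols were not found in the tables. Genes were named by a rule: 5 methylation genes, the 12 highest and 12 lowest changes, the 10 smallest p-values, the 8 highest and 8 lowest shared with either other comparison, all above 1 CPM on average, without overlap and without Gm names or pseudogenes, and up to 4 members per list. Some genes that the rule or a list names are not reported here. Other genes named in the text were singled out after their values were seen. Copies were aligned with blastn to GENCODE M21 transcripts. Group means are over 3 libraries, and p-values measure the spread between these pools.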

Additional observations from a re-analysis of the deposited data

Results flagged for a closer look

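The test of AzadC against vehicle, which equals the difference between their changes against the shared control libraries, passed for 2 genes. Cav1, the caveolin of membrane pits, had 24.8, 25.9 and 28.3 CPM in AzadC libraries, 16, 12.4 and 15.2 CPM in vehicle libraries and 20.9, 22.7 and 23.2 CPM in control libraries. The difference was 0.864 on the log2 scale (adjusted p = 0.0232, edgeR), with changes against control of 0.25 in AzadC and -0.62 in vehicle, and all 3 AzadC libraries were higher. For Meioc the difference was -3.99 (adjusted p = 1.05e-05), with changes against control of 0.65 in AzadC and 4.64 in vehicle, and all 3 AzadC libraries were lower than every vehicle library. The cause of either difference was not tested.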

How the results depend on the processing

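AzadC against control gave 317 calls (153 higher, 164 lower), 1043 by DESeq2 (505 and 538), 1085 without a filter on low counts (447 and 638), 66 tested against a 1.2-fold change (25 and 41), 648 with a myogenic covariate (289 and 359) and 29 with a chondrogenic covariate added after seeing the data (8 and 21), and 37 to 384 as each library was left out (16 to 199 and 21 to 185). In the same order of settings the shared calls were 617, 670, 39, 341 and 27, and 30 to 197. Vehicle against control gave 1314 by DESeq2, 1259 without a filter, 116 against 1.2-fold, 182 with the chondrogenic covariate and 136 to 704 by omission. AzadC against vehicle gave 82 by DESeq2, 119 without a filter, 1 with only the 9 libraries, 1 against 1.2-fold, 4 with the chondrogenic covariate and 1 to 17 by omission, and AzadC calls that also parted from vehicle were 52 by DESeq2, 56 without a filter, 1 with the myogenic covariate and 0 to 12 by omission. List counts by DESeq2 were 19 interferon, 21 G2/M, 9 chondrogenic, 14 macrophage and 32 ribosomal genes, and without a filter 23, 22, 17, 14 and 28, with 12 osteogenic and 11 erythroid. Against 1.2-fold they were 4 interferon, 0 G2/M, 1 chondrogenic, 1 erythroid, 5 macrophage and 0 ribosomal genes; with the chondrogenic covariate 3 erythroid and 0 of the other 6 lists; with the myogenic covariate 20 G2/M and 10 chondrogenic; by limma-voom 0 chondrogenic; and with 9 libraries 7 interferon. Omission of single libraries gave 1 to 15 interferon, 0 to 17 G2/M, 1 to 7 osteogenic, 0 to 11 chondrogenic, 0 to 7 erythroid, 3 to 12 macrophage and 1 to 22 ribosomal genes. Replicate numbers did not pair the libraries (correlations of deviations from -0.359 to -0.105 between same-numbered AzadC and control libraries); with a replicate block the counts were 260 for AzadC against control, 498 for vehicle, 1 for AzadC against vehicle, 157 shared and 2 chondrogenic. Of the 317 calls 252 were kept by limma-voom and 217 under the block, and no named gene past the threshold changed sign, whereas the myogenic median, with no gene called, ran from -0.42 to 1.25 by omission; the cause of these shifts was not tested. AzadC replicate 1, at 12640536 counts, limits what can be called for genes under 1 CPM.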

Other observations

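Genes outside the lists were read through after the calls were known, and those of 3 kinds are described here without a test of the group. Several genes of the secretory pathway were among those that fell in AzadC against control. Serpinh1, the collagen chaperone of the endoplasmic reticulum, had 608, 594 and 728 CPM in AzadC libraries, 631, 735 and 739 CPM in vehicle libraries and 1099, 928 and 813 CPM in control libraries (log2 change -0.56, adjusted p = 0.0278, edgeR). The disulphide isomerases Pdia3 and Pdia6, the translocon subunit Sec61a1, the translocon-associated Ssr1, the cargo receptor Tmed9, the coat protein Sec24d and the retrieval receptor Kdelr3 fell by 0.29 to 1.13. In vehicle, Ssr1, Sec24d and Kdelr3 were called, and the others had log2 changes of -0.43 to -0.15.

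Some genes for adhesion molecules known from neurons were also among those that fell; they are examples chosen after their values were seen, not a count over all such genes. Pcdh15, a protocadherin, had 1.18, 0.485 and 2.14 CPM in AzadC libraries, 1.61, 3.12 and 2.86 CPM in vehicle libraries and 4.56, 12.2 and 4.22 CPM in control libraries (log2 change -2.40, adjusted p = 0.0311, edgeR). Nlgn1, Lrrtm1, Negr1, Cadm4, Pcdh10 and Pcdh7 fell by 0.58 to 1.61, and for these 6 the vehicle mean lay between the other 2 group means and was not called. Cntn3, a contactin, fell by 1.23 in AzadC and was also called in vehicle (-1.53, adjusted p = 0.00848), with 5.6, 4.24 and 5.54 CPM in AzadC libraries, 4.27, 4.82 and 3.43 CPM in vehicle libraries and 10.3, 12.3 and 13.5 CPM in control libraries. The last kind were genes of early developmental timing that rose in both AzadC and vehicle, and whose untreated knockout libraries also lay above the control libraries. Trim71 had 7.72, 13.6 and 7.98 CPM in AzadC libraries, 8.11, 9.48 and 7.62 CPM in vehicle libraries and 4.14, 1.99 and 4.28 CPM in control libraries. Lin28b and Igf2bp3 rose by 1.05 and 0.40 in AzadC and by 0.90 and 0.45 in vehicle. Knockout libraries averaged 9 CPM for Trim71, 14.7 CPM for Lin28b and 193 CPM for Igf2bp3. The control averages were 3.47, 8.89 and 165 CPM.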
